A study of Mus musculus with 39 samples.

Results

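Unfertilized oocytes and cumulus cells were compared on 11 of the 39 arrays of the series, 7 of oocytes (OC) and 4 of cumulus cells (Cumulus). Whether the cumulus cells had surrounded these same oocytes is not stated. The members were the arrays labelled as unfertilized oocyte or as cumulus cell, and no measured value took part in choosing them. Both cell types came from untreated (B6xDBA/2)F1 (BDF1) females, aged 8 to 10 weeks, that had been superovulated with gonadotropins, and the cumulus-oocyte complexes had been taken from the oviducts 15 h after human chorionic gonadotropin (hCG). Hyaluronidase had been used to disperse the cumulus cells. Each OC array held RNA of 10 pooled oocytes at metaphase II, and each Cumulus array RNA of 500 cumulus cells. In the study the oocytes served as recipients and the cumulus cells as nuclear donors for somatic cell nuclear transfer (SCNT), and the remaining 28 arrays were of 2-cell embryos made by *in vitro* fertilization (IVF) or SCNT.

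An ovulated oocyte is a germ cell arrested in the second meiotic division. It no longer transcribes its genome and lives on messenger RNA stored during growth, much of which is kept dormant, translated on cue or destroyed at maturation. Cumulus cells are the somatic granulosa cells that travel with it. They are coupled to the oocyte by gap junctions, supply it with pyruvate, amino acids and sterols, and, after the ovulatory surge of gonadotropin, lay down a hyaluronan matrix and turn on steroid synthesis.

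After 2 rounds of linear amplification, the RNA had been labelled with Cy3 and hybridized to 1 Agilent Whole Mouse Genome 44 K array per sample. A level is given here as the log2 of the processed intensity of a probe minus the log2 of the 75th percentile of its array, so that 0 is the brightness of a well-expressed transcript and a difference is in log2 units. A probe counted as well above background where the scanner software had marked it so. On this mark, 48.6 to 59.9% of probes were detected on the OC arrays and 58.2 to 65.7% on the Cumulus arrays, and no spot was saturated. Across the 15290 probes well above background on all 11 arrays, Pearson's correlation was 0.95 to 0.988 between OC arrays, 0.965 to 0.986 between Cumulus arrays and 0.499 to 0.573 between an OC and a Cumulus array. This is a description across probes, which share arrays and are not replicates.

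The scanner differed between the groups. The OC arrays had been read with the G2505B model and Feature Extraction 9.5.3.1, with the extended dynamic range on, and lay on 5 slides that also held embryo arrays. The Cumulus arrays had been read with the G2505C model and Feature Extraction 10.5.1.1, without the extended range, and lay on 1 slide of their own. From these 11 arrays, the cell type of Cumulus cannot be told apart from its slide and its scanner. The 8 SCNT arrays whose embryos had received mRNA of the transcription factor Spi-C had been read with the second scanner as well. A fit with the scanner as a term was therefore made over all 39 arrays, taking these embryos and the uninjected SCNT embryos read with the first scanner as 1 group. In this fit the scanner cannot be told apart from the Spi-C injection, and among the genes named below that were called it turned no direction. Fewer cells of a type and less RNA per cell cannot be told apart in such bulk samples either.

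The labels were first set against 3 transcripts of oocytes and 3 of cumulus cells. *Zp3*, which encodes the sperm-binding glycoprotein of the zona pellucida, had levels of 4.04, 4.41 and 4.79 (lowest, median and highest) in the 7 OC samples and of -5.03, -5.69, -6.93 and -7.56 in Cumulus replicates 1 to 4. It was well above background on all OC arrays and on 2 Cumulus arrays, and the difference was 10.73 ± 0.29 (SE; limma, adjusted p = 2.08e-24). *Gdf9*, an oocyte ligand of the TGF-beta family that drives granulosa cells towards the cumulus state, lay between 9.30 and 10.17 in OC (median 9.91) and at 0.01, 0.53, 0.90 and -0.11 in Cumulus. Its groups were 8.40 apart at their closest, yet it was well above background on all 4 Cumulus arrays. *Nlrp5*, also called *Mater* and a core member of the subcortical maternal complex, was at 3.01, 3.90 and 4.37 in OC (lowest, median and highest) and was not well above background on any Cumulus array, so that it was at least 1220-fold higher in OC (adjusted p = 6.74e-26).

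On the cumulus side, *Inha*, the alpha subunit of inhibin, was at 5.63, 5.90, 6.02 and 5.71 in Cumulus and between -6.37 and -4.10 in OC (median -5.24; well above background on 5 OC arrays), a difference of -11.11 ± 0.79 (limma, adjusted p = 8.2e-14), while its dimmer second probe differed by -0.45. *Star*, which carries cholesterol to the inner mitochondrial membrane for steroid synthesis, was at 3.44, 2.66, 2.27 and 3.24 in Cumulus and between -2.66 and -1.49 in OC (median -2.27), a 32.4-fold difference. *Has2*, the hyaluronan synthase of the expanding cumulus, went against its label. It was at 0.37, 0.23, 1.14 and 1.74 in Cumulus and between -0.43 and 1.67 in OC (median 0.50), the groups overlapped, and the difference was -0.29 ± 0.80 (limma, adjusted p = 0.746). *Has2* was well above background on all 11 arrays, so at 15 h after hCG these data do not separate the cell types by this gene.

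**Figure D1:**
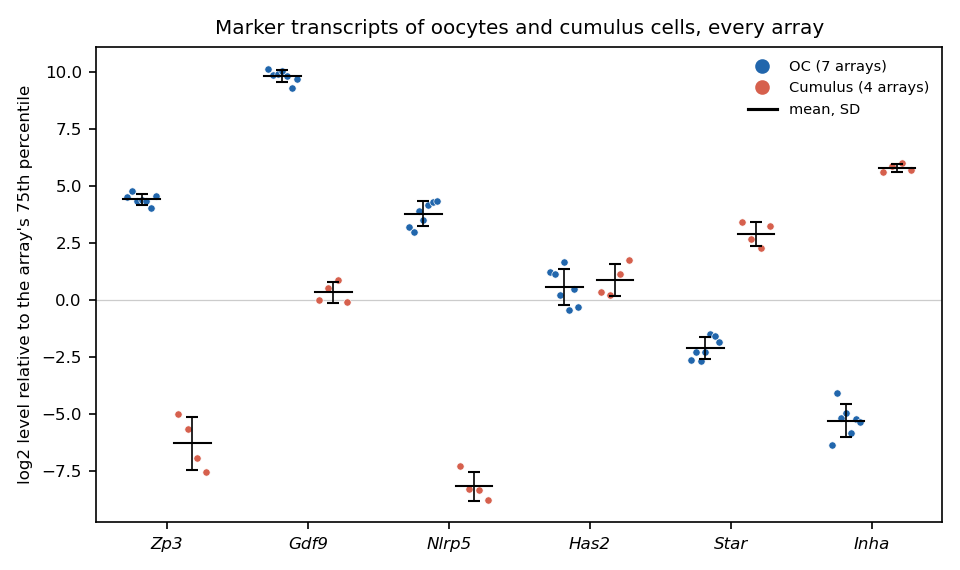
Levels of 3 oocyte and 3 cumulus markers on every array, as log2 intensity relative to the array's 75th percentile, with the mean and SD of each group (7 OC arrays, 4 Cumulus arrays). The groups are apart for every gene but *Has2*, whose OC and Cumulus values overlap.

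Wider marker lists were read next. They were chosen with earlier results of these data known, so their counts do not test the labels. Of 12 oocyte markers, all 12 were called higher in OC, with a median difference of 10.47. Of these, 3 were well above background on all 4 Cumulus arrays (*Gdf9*, the nucleoplasmin gene *Npm2* and the oocyte linker histone gene *H1f8*) and 5 on none. Of 12 cumulus markers, 10 were called higher in Cumulus, with a median difference of -9.25. The exceptions were *Has2* and *Foxl2*, a transcription factor of the granulosa lineage whose level was -4.48 ± 0.43 (SD, n = 7) in OC and -5.79 ± 0.07 (SD, n = 4) in Cumulus. *Star*, *Has2* and *Ptgs2* were the cumulus markers well above background on all 7 OC arrays.

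Markers of other cells that the Cumulus samples could hold were read in the same way. Of 10 leukocyte markers, 7 were called higher in Cumulus and 1 in OC, beside 28.5% and 34.4% of all genes, and 2 were not called. In Cumulus, 9 were well above background on all 4 arrays. Of the 7, 5 kept their call under each of quantile normalization, median centring, normexp and the scanner as a term. The summed level of the 10 was between 5.05 and 6.86 in Cumulus and between -2.08 and -0.76 in OC. *Lyz2*, the lysozyme of myeloid cells, was at 4.41, 4.97, 6.51 and 6.69 in Cumulus and between -7.77 and -4.61 in OC, where 1 array had it well above background. *Adgre1*, a surface receptor of macrophages, was by its brightest probe at 1.13, -0.57, 1.51 and 1.54 in Cumulus and at least 70.8-fold lower in OC. Its other probe was well above background on no OC and no Cumulus array. *Tyrobp*, an adaptor of myeloid receptors, was at least 51.2-fold lower in OC than in Cumulus. Of 10 oviduct epithelium markers, 4 were called higher in Cumulus and 1, the epithelial adhesion gene *Epcam*, in OC (7.10 ± 0.39). Over all genes the shares were 28.5% and 34.4%, so 4 of 10 is not far from that of genes at large. The median difference of the 10 was -0.45 and turned with the scanner as a term (0.08) and with normexp (0.63). Their sum was between 5.51 and 5.94 in Cumulus and between 1.20 and 1.92 in OC, and in Cumulus the keratin gene *Krt8* alone was at 5.00, 5.24, 5.02 and 5.40. *Ovgp1*, the oviduct-specific glycoprotein, was at 0.93, 0.77, 1.97 and 2.16 in Cumulus, where *Pax8* was not well above background on any array. Endothelial markers were mixed, with *Cdh5* at least 116-fold higher in Cumulus and *Kdr*, *Pecam1* and *Tek* higher in OC. The haemoglobin gene *Hba-a1* was at 0.12 and 0.01 in Cumulus replicates 2 and 3 and at -4.07 and -4.90 in replicates 1 and 4. What part leukocytes, oviduct epithelium or blood had in the genes higher in Cumulus was not tested.

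With all 41174 probes tested, 18675 were higher in OC (45.4%) and 9294 in Cumulus (22.6%) at a Benjamini-Hochberg adjusted p under 0.01 (limma). The median of the arrays' 75th percentiles was 392 intensity units in OC and 945 in Cumulus, and the dimmest measurable level was higher in OC (mean -5.24) than in Cumulus (-6.47). Of the 7050 probes well above background on no array, 3696 were called higher in OC and 0 in Cumulus, with a median difference over the 7050 of 1.37. A call was therefore kept only where no array of the higher group had the probe at background. This left 11099 probes higher in OC (27.0%) and 9107 higher in Cumulus (22.1%). The median difference of all probes was 1.19 on this scale, 0.98 with arrays centred on their medians, 0.24 after quantile normalization, 1.14 with normexp and 1.42 with the scanner as a term, and differences of genes are to be read relative to that shift.

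The 27829 probes that named 1 gene stood for 18883 genes, each given by its brightest probe. Of these genes, 47.0% were called higher in OC and 28.8% in Cumulus. With the calls at background left out, 6499 were higher in OC (34.4%) and 5382 in Cumulus (28.5%). These are the shares against which the lists above and below are to be read. The median difference over all genes was 1.04. At least 4-fold differences were found for 4911 and 4189 of the called genes. A further distinction was whether a gene was measured in the other cell type by that brightest probe. By it, 556 genes were well above background on every OC and no Cumulus array, all 556 of them called. Another 835 were well above background on every Cumulus and no OC array, of which 780 were called. Other probes of some of these genes were well above background in the other cell type. In 568 of the 6783 genes with several probes, another probe was called in the opposite direction, and this is stated below where such a gene is named. Of 92 genes named here that had several probes, 83 had another probe well above background on every array of a group. In 7 of them such a probe was called in the opposite direction, and in 10 it missed the threshold.

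**Figure D2:**
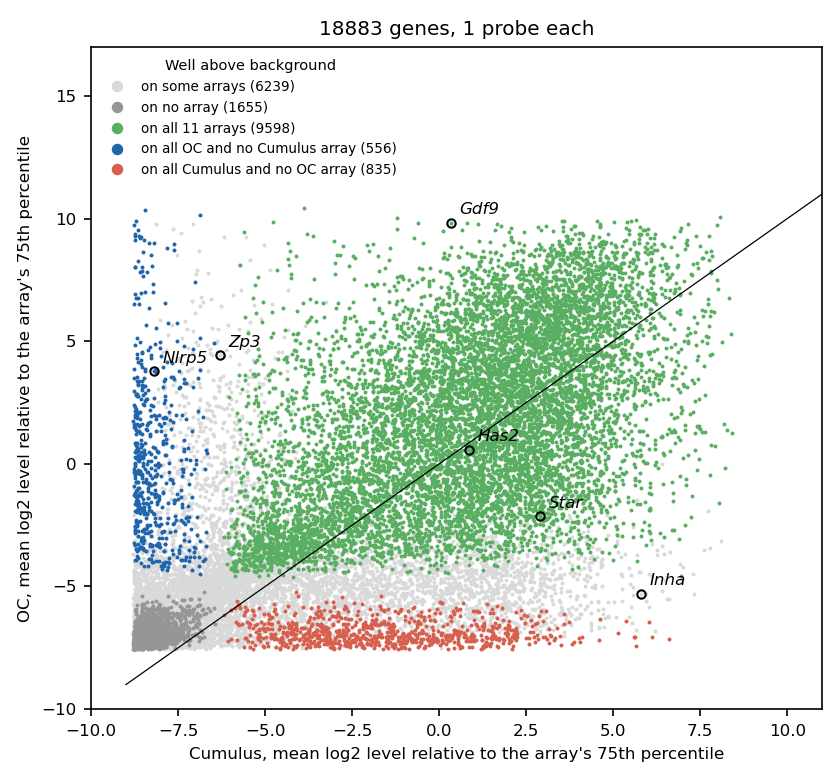
Mean log2 level of 18883 genes (1 probe each) in OC against Cumulus, coloured by the arrays on which the probe was well above background, with the diagonal of equal levels and the 6 markers circled. The 556 genes detected by this probe in OC alone form the band at the left edge and the 835 detected by it in Cumulus alone the band at the bottom.

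Among the genes above background in OC alone, those with the highest level in OC were *Oosp1*, *Khdc1b*, *Oog3*, *E330034G19Rik*, *Omt2b*, *Bmp15*, *Trim61*, *Nlrp4f*, *Nlrp4b* and *Obox5*. *Oosp1*, an oocyte-secreted protein, was at 9.86, 10.32 and 10.66 in OC (lowest, median and highest) and between -8.82 and -8.04 in Cumulus, and it was at least 116000-fold higher in OC (adjusted p = 1.51e-37). The other 9 were at least 53100 to 99900-fold higher. These bounds hold on this scale alone. The difference of *Oosp1* came to 16.29 after quantile normalization and 13.86 with normexp, both less than its bound in log2 units. Several of these (*Oog3*, *Omt2b*, *Nlrp4b*, *Nlrp4f* and *Obox5*) belong to families of near-identical copies, whose members a probe may not separate. Where both cell types could be measured, the largest differences were those of *Oas1e*, *E330021D16Rik*, *H1f8*, *D6Ertd527e*, *Tcl1*, *Accsl*, *Afap1l2*, *Fbxw27*, *Gm16367* and *Smagp*, from 15.04 down to 12.67 (for *Smagp* without OC replicate 3, whose spot was marked as an outlier). *H1f8*, which encodes the oocyte linker histone, had levels of 9.96, 10.48 and 10.90 in OC (lowest, median and highest) and of -2.46, -4.85, -4.24 and -4.01 in Cumulus.

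For Cumulus, the brightest genes with no OC signal by their brightest probe were *Klf6*, *Pik3c2g*, *Ier3*, *Hs3st1*, *Mgst2*, *Emp1*, *Mgp*, *Vcan*, *Ccn2* and *Arrdc3*, at least 904 to 3700-fold higher. By other probes, *Klf6* was well above background on 6 OC arrays (difference -3.75) and *Pik3c2g* on all 7, with the opposite direction (difference 1.84). Among genes measured in both, *Nr4a1*, *Id2*, *Serpinb6b*, *Sgk1*, *Rgcc*, *Cited4*, *Mgst1*, *Timp1*, *Pcsk5* and *S100a10* differed most, by -11.52 to -9.22 by their brightest probes. For *Pcsk5* this held for 2 of 4 probes (-9.39 and -7.73), and the others, well above background on 6 and 7 OC and all Cumulus arrays, differed by 0.27 and 1.03 and were not called. *Nr4a1*, an orphan nuclear receptor induced by gonadotropins, was at -4.56 ± 0.48 (SD, n = 7) in OC and at 6.96 ± 0.20 (SD, n = 4) in Cumulus. *Sgk1*, a kinase of the serum and steroid response, was at -1.59 ± 0.79 and 8.03 ± 0.23, and the matrix inhibitor gene *Timp1* at -2.17 ± 0.34 and 7.24 ± 0.26.

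The promoters of 2 oocyte and 2 cumulus genes are printed as the stretches in front of genes whose transcripts differed strongly between the cell types. They are the 250 bases before the annotated start in RefSeq (GRCm38.p6), on the strand of the gene, with matches to 6 short motifs in capitals. Both strands were searched for the E-box CACGTG and for TAATTG, the site of the oocyte homeobox factor NOBOX. AAGGTCA stands for the site of the steroidogenic factor SF-1, which directs many genes of steroid synthesis. TGACGT is the core of the cyclic AMP response element, used by hormones that act through that messenger. TGACTCA is the site of the AP-1 factors, to which FOS and JUN belong. The last motif, TATAAA, is the TATA box. CACGTG reads the same on both strands.
*Zp3*, chr5:135979855-135980104, plus strand: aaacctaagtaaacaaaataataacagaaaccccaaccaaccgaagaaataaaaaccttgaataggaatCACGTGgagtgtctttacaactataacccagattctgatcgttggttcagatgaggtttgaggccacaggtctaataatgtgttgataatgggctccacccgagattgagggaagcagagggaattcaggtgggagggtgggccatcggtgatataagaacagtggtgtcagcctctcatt
*Bmp15*, chrX:6320725-6320974, minus strand: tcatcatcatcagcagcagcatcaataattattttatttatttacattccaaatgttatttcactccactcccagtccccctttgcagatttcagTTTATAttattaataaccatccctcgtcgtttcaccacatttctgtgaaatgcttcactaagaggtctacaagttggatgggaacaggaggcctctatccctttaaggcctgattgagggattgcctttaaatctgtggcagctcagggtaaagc
*Ldha*, chr7:46845554-46845803, plus strand: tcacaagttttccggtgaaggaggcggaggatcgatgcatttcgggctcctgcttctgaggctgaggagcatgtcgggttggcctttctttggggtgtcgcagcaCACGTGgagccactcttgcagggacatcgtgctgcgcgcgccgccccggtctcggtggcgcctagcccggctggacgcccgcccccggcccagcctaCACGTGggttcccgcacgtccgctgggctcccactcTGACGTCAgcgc
*Gja1*, chr10:56377050-56377299, plus strand: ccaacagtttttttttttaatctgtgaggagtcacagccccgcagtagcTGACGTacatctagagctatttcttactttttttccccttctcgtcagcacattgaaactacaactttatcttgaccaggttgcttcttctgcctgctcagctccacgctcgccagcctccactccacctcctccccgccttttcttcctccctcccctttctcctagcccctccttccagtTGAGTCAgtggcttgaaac

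The *Zp3* stretch holds CACGTG at 181 bases before the start, and *Bmp15* holds TATAAA on the opposite strand at 155. The *Ldha* promoter, of 2 that the table gives for this gene, holds CACGTG at 145 and 48 bases before the start and TGACGT on both strands in one overlapping stretch, and *Gja1* holds TGACGT at 201 and, on the opposite strand, TGACTCA at 19. Over 32851 promoters of all genes, CACGTG was found in 6.02%, TAATTG in 7.17%, TGACGT in 6.47%, TGACTCA in 4.46%, AAGGTCA in 4.08% and TATAAA in 12.4%. In the 536 promoters of genes above background in OC alone (438 of the 556 genes had one), CACGTG was in 8.58%, TAATTG in 8.77%, TGACGT in 4.66%, TGACTCA in 5.04%, AAGGTCA in 5.04% and TATAAA in 17.2%. In the 725 promoters of genes above background in Cumulus alone (589 genes), the same motifs were in 5.79%, 5.10%, 7.45%, 6.07%, 4.55% and 10.3%. These shares describe letters in a window and say nothing of binding.

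The zona pellucida and oocyte-secreted factors were mostly higher in OC. Of 15 genes measured, 12 were called higher in OC and 2 in Cumulus, and their median difference was 8.70, beside 1.04 over all genes. *Bmp15*, the partner of *Gdf9* in signalling to granulosa cells, was at 8.83, 9.48 and 9.53 in OC (lowest, median and highest) and at least 58800-fold lower in Cumulus. *Oosp3* and *Tgfb2*, a TGF-beta ligand, were at least 32100 and 1940-fold higher in OC, and *Astl*, the protease ovastacin that hardens the zona after fertilization, at least 330-fold. *Izumo1r*, also called *Juno* and the receptor of the sperm protein IZUMO1, was at least 142-fold higher in OC. Both tetraspanins went the other way, although the oocyte needs them for sperm fusion. *Cd9* was at 3.74 ± 0.68 (SD, n = 7) in OC and at 5.95 ± 0.39 (SD, n = 4) in Cumulus, and *Cd81* at 3.72 ± 0.31 and 6.97 ± 0.17.

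Genes of the subcortical maternal complex and other maternal-effect genes, which embryos need from the egg, showed 16 of 19 higher in OC and 2 higher in Cumulus (median 7.54). *Zar1*, which binds stored messenger RNA, was at 8.51, 8.71 and 8.95 in OC (lowest, median and highest) and at least 37800-fold lower in Cumulus, and the zinc finger gene *Bnc1* at least 8050-fold lower. *Dppa3*, also called *Stella* and a protector of maternal DNA methylation, differed by 12.11 ± 0.25, and *Padi6*, needed for the cytoplasmic lattices of the egg, by 11.33 ± 0.19 (2 Cumulus arrays well above background). *Tle6* was measured in both cell types, at 6.25 ± 0.06 (SD, n = 7) in OC and 1.27 ± 0.38 (SD, n = 4) in Cumulus. The 2 members higher in Cumulus were *Pms2*, a mismatch repair gene (6 OC arrays well above background), and *Ago2*, the slicer of RNA interference, with differences of -2.96 ± 0.57 and -2.20 ± 0.45, and another probe of *Ago2* missed the threshold (limma, adjusted p = 0.0101).

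Among 13 *Nlrp* genes measured, 8 were higher in OC and 1 in Cumulus (median 12.40). *Nlrp4f*, *Nlrp4b*, *Nlrp14*, *Nlrp4a*, *Nlrp9a* and *Nlrp4e* were all at 6.78 to 9.29 on average in OC and, by their brightest probes, at least 9770 to 55500-fold lower in Cumulus. A second probe of *Nlrp4a* was well above background on 1 Cumulus array and differed by 14.12. *Nlrp10* was the member higher in Cumulus, at 0.58, 0.60, 0.51 and 0.76 there and between -6.09 and -1.93 in OC (median -5.10; 2 OC arrays well above background). The family thus held members at both ends of the scale.

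The germ-cell transcription factors followed the same division, with 15 of 20 higher in OC and 1 in Cumulus (median 9.29), and 11 of them above background in OC alone. *Lhx8*, *Nobox* and *Figla*, regulators of oocyte growth and of zona genes, were at least 8200, 1750 and 27.2-fold higher in OC. *Obox5*, *Obox1*, *Sall4* and *Tfap2c* were at least 53100, 23200, 14500 and 11300-fold higher by their brightest probes, and for *Sall4* another probe was well above background on all 11 arrays and differed by 1.05. *Pou5f1*, the pluripotency factor OCT4 and a stored transcript of the egg, was at 4.68 ± 0.32 (SD, n = 7) in OC and at least 2280-fold lower in Cumulus. *Sox2* was at least 314-fold higher in OC, whereas *Nanog* was well above background on only 3 OC and 2 Cumulus arrays. *Yy1*, a widely used zinc finger factor, was higher in Cumulus, at 2.47 ± 0.26 (SD, n = 4) against -4.17 ± 1.17 (SD, n = 7; 5 OC arrays well above background).

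**Figure D3:**
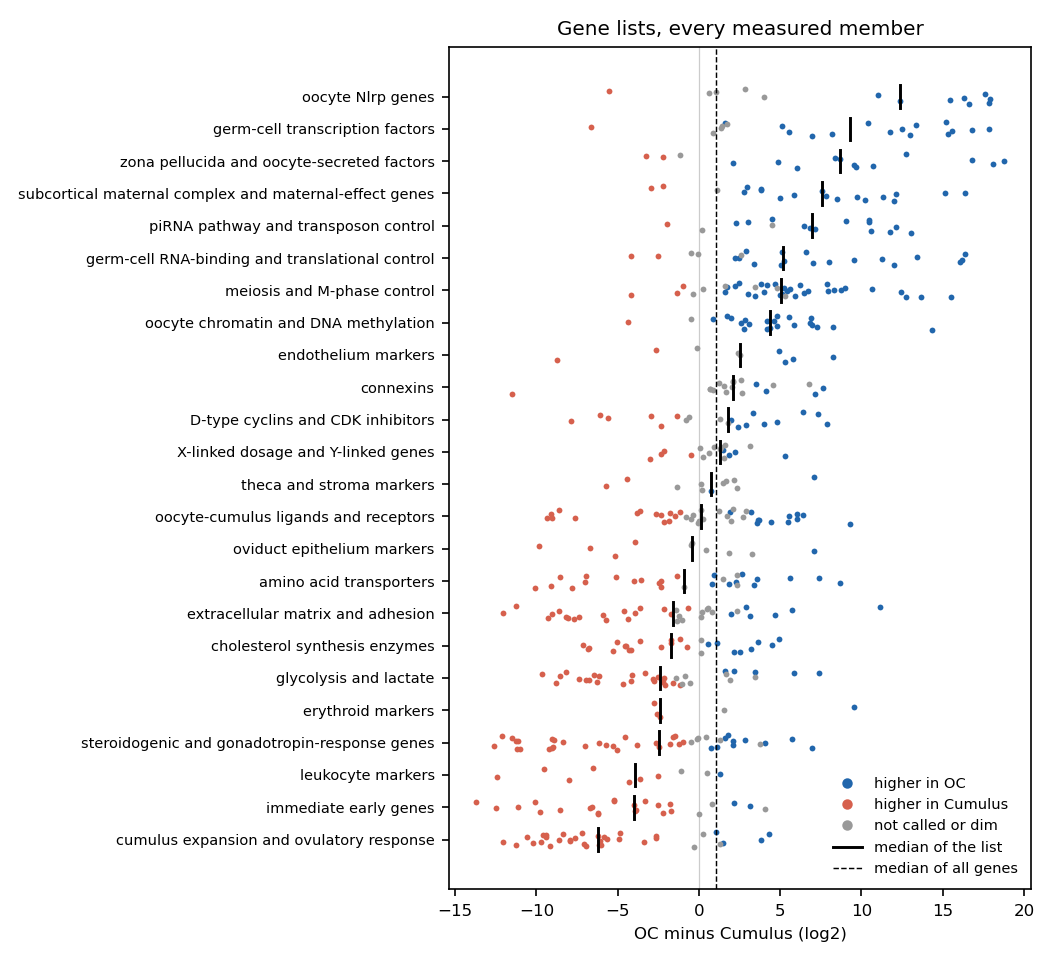
OC minus Cumulus (log2) for every measured member of 24 gene lists, coloured by call (adjusted p under 0.01, and no array of the higher group at background), with the median of each list and, dashed, of all genes. Germ-cell lists lie to the right of the dashed line and cumulus expansion, immediate early, steroidogenic, glycolytic and sterol lists to the left, each with members on the other side.

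Stored messenger RNA is held by RNA-binding proteins, and 17 of 22 such genes and regulators of translation were higher in OC and 2 in Cumulus (median 5.19). *Dazl*, a germ-cell translational activator, was at 6.87, 7.75 and 8.08 in OC (lowest, median and highest) and at least 18200-fold lower in Cumulus. *Btg4*, which recruits the deadenylase at maturation, *Igf2bp3*, a messenger RNA stabilizer, and *Cpeb1*, the regulator of cytoplasmic polyadenylation, differed by 16.04 ± 0.37, 13.40 ± 0.34 and 11.99 ± 0.32, and they were well above background on 1, 2 and 4 Cumulus arrays. *Patl2* was at least 1220-fold higher in OC. *Cnot6l* and *Cnot7*, catalytic subunits of the deadenylase, differed by 8.02 ± 0.24 and 5.26 ± 0.23, but the second probe of *Cnot7*, well above background on all 11 arrays, by 1.18, beside the shift of 1.04 over all genes. The uridylyltransferase genes *Tut4* and *Tut7* were higher in Cumulus, by -4.20 ± 0.39 and -2.49 ± 0.21, but a second probe of *Tut7* differed by 2.63. *Caprin1*, a stress granule protein, was at 4.44 ± 0.33 in OC and 4.49 ± 0.16 in Cumulus (adjusted p = 0.819), and its second probe did not pass the test either (-1.01).

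In the piRNA pathway, which silences transposons in germ cells, 13 of 16 genes were higher in OC and 1 in Cumulus (median 6.99). *Mael*, *Gtsf1* and *Piwil1* were at least 2390, 533 and 325-fold higher in OC. *Tdrd1*, *Asz1* and *Fkbp6* differed by 12.10 ± 0.39, 11.74 ± 0.52 and 10.48 ± 0.52, with 2, 1 and 1 Cumulus arrays well above background. *Tdrd7* was the member higher in Cumulus, at 2.66 ± 0.17 (SD, n = 4) against 0.68 ± 1.26 (SD, n = 7), and *Piwil2* did not pass the test (difference 0.18 ± 0.42, adjusted p = 0.695).

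Chromatin and DNA methylation genes were measured in both cell types for 22 of 23 members, and 21 were higher in OC and 1 in Cumulus (median 4.37). *Uhrf1*, the partner of the maintenance methyltransferase, lay between 8.34 and 8.62 in OC (median 8.57) and at 0.30, 0.75, -0.29 and 0.41 in Cumulus, a 300-fold difference. *Dnmt1*, *Dnmt3b* and *Dnmt3l*, of the methyltransferase family, differed by 4.16 ± 0.19, 4.37 ± 0.19 and 7.26 ± 0.18, and *Tet3*, which oxidizes methylated cytosine in the zygote, by 5.87 ± 0.21. All 3 core genes of Polycomb complex 2 were higher in OC, *Ezh2* by 6.90 ± 0.16, *Eed* by 5.53 ± 0.15 and *Suz12* by 4.78 ± 0.17. *Ehmt2*, the histone H3 lysine 9 methyltransferase G9a, was the one higher in Cumulus, at 2.82, 2.91, 2.82 and 2.54 there and between -1.98 and -1.14 in OC (median -1.62).

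Of 38 genes of meiosis and M phase, 29 were higher in OC and 3 in Cumulus (median 5.04). *Mos*, the kinase that keeps the egg in metaphase II, was at 4.79, 5.70 and 5.79 in OC (lowest, median and highest) and at least 4200-fold lower in Cumulus. *Wee2*, the oocyte inhibitor of CDK1, was at least 11500-fold higher in OC, and *Fbxo43*, also called *Emi2* and the inhibitor of the anaphase-promoting complex, differed by 12.75 ± 0.44 (1 Cumulus array well above background). *Aurkc*, the aurora kinase of germ cells, differed by 12.43 ± 0.15, beside 3.98 ± 0.19 for *Aurka* and 1.61 ± 0.20 for *Aurkb*. The receptor *Gpr3* and the phosphodiesterase *Pde3a*, which raise and break down the cyclic AMP that holds the oocyte in prophase, were at least 65.2 and 87.8-fold higher in OC. *Cdk1* itself went the other way by its brightest probe, with -4.77, -3.20 and -2.32 in OC (lowest, median and highest) and 0.60, 0.89, 0.58 and 1.13 in Cumulus, while its partner *Ccnb1* was 9.48 ± 0.31 (SD, n = 7) in OC and 3.57 ± 0.50 (SD, n = 4) in Cumulus. The second probe of *Cdk1* was well above background on 0 OC arrays and 1 Cumulus array. *Fzr1* and *Camk2g* were the others higher in Cumulus, by -1.38 ± 0.23 and -0.99 ± 0.18, although another probe of *Fzr1* missed the threshold (-0.75).

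Of 19 D-type cyclins, other G1 and S phase cyclins, their kinases and inhibitors, 9 were higher in OC and 6 in Cumulus (median 1.8). Over all genes the shares were 34.4% and 28.5% and the median 1.04, so the count in Cumulus is near its share. After quantile normalization the median was 0.74, beside 0.24 over all genes. *Ccne2*, *E2f1* and *Ccna2*, which drive DNA replication, differed by 7.88 ± 0.27, 6.42 ± 0.33 and 4.83 ± 0.19. *Cdkn1a*, the inhibitor p21, *Cdk4* and *Cdkn2b* were higher in Cumulus, by -7.86 ± 0.45, -6.06 ± 0.28 and -5.61 ± 0.97, the first of them well above background on 4 OC arrays.

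Transcripts for signalling between the 2 cell types lay on both sides. Of 39 ligands, receptors and signal carriers, 12 were higher in OC and 14 in Cumulus (median 0.11). The shares over all genes were 34.4% and 28.5%, so this split is near that of genes at large. Under quantile normalization, median centring, normexp and the scanner as a term, all 12 calls in OC and 9 of the 14 in Cumulus were kept in each. *Kit*, the receptor on the oocyte, was at 5.85, 6.26 and 6.84 in OC (lowest, median and highest) and at -3.19, -3.06, -2.84 and -2.79 in Cumulus, a difference of 9.31 ± 0.22. Its ligand *Kitl*, known as a granulosa product, was higher in OC as well, between 0.33 and 2.36 there (median 1.43) and at -2.22, -2.59, -2.83 and -1.04 in Cumulus (difference 3.58 ± 0.42, limma, adjusted p = 7.31e-09), while its other probe was well above background on no array. Of the receptors for GDF9 and BMP15, *Bmpr2* did not pass the test (0.40 ± 0.61 in OC, 0.48 ± 0.35 in Cumulus) and *Tgfbr1* was higher in Cumulus by -1.82 ± 0.22, while its other probe missed the threshold (-0.63). *Bmpr1b* was higher in OC by 4.41 ± 0.22, and the 2 probes of *Bmpr1a* went opposite ways (-2.16 and 1.74). *Smad3* and *Smad2*, which relay signals of some TGF-beta family ligands, were higher in OC by 6.05 ± 0.19 and 3.69 ± 0.18.

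Several further ligands and receptors were higher in Cumulus, and others in OC. *Fst*, which binds activins, was at 2.11, 1.96, 2.00 and 1.97 in Cumulus and at least 152-fold lower in OC, *Grem1*, a BMP antagonist induced by the oocyte, at least 96.1-fold lower, and *Igf1* differed by -9.10 ± 0.67 (2 OC arrays well above background). *Npr2*, the receptor whose cyclic GMP keeps the oocyte in prophase, was at 2.48, 3.16, 3.29 and 2.51 in Cumulus and between -7.48 and -4.93 in OC (median -6.27), and at least 262-fold higher in Cumulus by its brightest probe, while one of its other probes differed by 0.14 and was well above background on 4 OC and 4 Cumulus arrays. Its ligand *Nppc*, known from mural granulosa cells, was well above background on no Cumulus and 5 OC arrays. *Jag1*, a Notch ligand, and the Notch target *Hey1* were higher in OC by 6.41 ± 0.36 and 6.02 ± 0.25, and *Notch2*, a Notch receptor of granulosa cells, was higher in Cumulus by -2.31 ± 0.25 by its brightest probe. Its other probes differed by -0.09 and 1.88, were well above background on 7 and 6 OC and all Cumulus arrays, and were not called. For *Egfr*, the receptor of the EGF-like factors, the brightest probe differed by 1.89 ± 0.22, and its 3 other probes by 1.03, -4.60 and -7.77.

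The gap junctions that join the cells split between them. *Gja4*, which encodes the connexin of the oocyte side, was at 2.88, 3.36 and 3.85 in OC (lowest, median and highest) and at -3.89, -3.89, -3.53 and -3.78 in Cumulus (difference 7.12 ± 0.23). *Gja1*, the main connexin of granulosa cells, was at 5.91, 5.83, 5.96 and 6.03 in Cumulus and between -7.23 and -3.20 in OC (median -5.91; 3 OC arrays well above background), a difference of -11.52 ± 0.47. The groups were 6.41 and 9.03 apart at their closest. Of 18 connexin genes, 4 were higher in OC and *Gja1* alone in Cumulus. The other 3 were *Gjb2*, *Gja6* and *Gjc1*, with differences of 7.64 ± 0.35, 4.13 ± 0.85 and 3.54 ± 0.22, and 9 more were called only from dim probes.

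Genes of cumulus expansion and the ovulatory response, for the most part matrix, prostaglandin and EGF-like genes that the hCG surge turns on, were called higher in Cumulus in 28 of 35 cases and in OC in 4 (median -6.21). *Ptgs2*, the inducible cyclooxygenase, was at 3.05, 3.20, 3.68 and 3.40 in Cumulus and between -4.60 and -2.45 in OC (median -4.00). *Vcan*, the proteoglycan versican, was at least 1350-fold higher in Cumulus by its brightest probe, and *Tnfaip6*, which cross-links hyaluronan, differed by -11.26 ± 0.74, *Lox* by -10.60 ± 1.03 (1 spot marked as an outlier was left out) and *Adamts1* by -10.21 ± 1.08, with 3, 4 and 1 OC arrays well above background. The EGF-like factors *Areg* and *Ereg* were at least 19.3 and 20.4-fold higher in Cumulus. *Pgr*, the progesterone receptor, was well above background on no array. The 4 genes higher in OC were *Plat*, *Ptger4*, *Adamts4* and *Pparg*. *Plat*, the tissue plasminogen activator, was at 9.36, 9.99 and 10.32 in OC (lowest, median and highest) and at 5.73, 5.36, 5.83 and 5.68 in Cumulus, and *Ptger4*, a prostaglandin E2 receptor, differed by 3.84 ± 0.38, whereas *Ptger2* differed by -8.59 ± 0.92 (1 OC array well above background). *Pparg* was 1.04 ± 0.27 higher in OC on this scale, and this turned under quantile normalization (-0.30).

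Immediate early genes, which cells switch on within minutes of a stimulus, were higher in Cumulus in 20 of 25 cases and in OC in 2 (median -4.01). *Fos* was at 5.38, 5.63, 5.79 and 5.70 in Cumulus and between -1.05 and -0.05 in OC (median -0.46). *Ier3* was at least 2480-fold higher in Cumulus, and by their brightest probes *Klf6* and *Myc* at least 3700 and 455-fold, although other probes of these last 2 were well above background on 6 and 5 OC arrays and differed by -3.75 and -3.74. *Egr2* differed by -8.53 ± 0.58, and *Ier5* and *Jun*, each well above background on 1 OC array, by -11.12 ± 0.33 and -9.79 ± 0.91. *Dusp1* and *Klf4* were higher in OC, by 3.15 ± 0.14 and 2.18 ± 0.30. *Fosb* did not pass the test, at 2.33 ± 0.64 in OC and 2.35 ± 1.13 in Cumulus.

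Among 43 steroidogenic and gonadotropin-response genes, 27 were higher in Cumulus and 10 in OC (median -2.45). *Cyp11a1*, the side-chain cleavage enzyme that makes pregnenolone, was at 6.95, 7.0, 6.91 and 6.80 in Cumulus and between -4.92 and -2.74 in OC (median -4.24; 5 OC arrays well above background). *Akr1c18*, which breaks down progesterone, *Sfrp4*, a luteinizing-cell Wnt antagonist, *Inhba*, the activin A subunit, and *Hsd3b1*, which makes progesterone, differed by -12.62 ± 1.53, -12.11 ± 0.79, -11.28 ± 1.41 and -11.20 ± 0.69, and they were well above background on 3, 1, 1 and 6 OC arrays. *Scarb1*, which takes up cholesterol from high-density lipoprotein, was higher in Cumulus by -2.67 ± 0.20. The receptor *Lhcgr* was at -2.03, -1.94, -1.18 and -0.75 in Cumulus and at least 13.6-fold lower in OC, and *Fshr* at 0.50, 0.94, 0.36 and 0.70 in Cumulus and between -4.50 and -0.55 in OC, well above background on 6 OC arrays.

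Aromatase was among the 10 genes higher in OC. *Cyp19a1*, which makes oestrogen from androgen and is known as a granulosa enzyme, was at 7.40, 8.16 and 8.87 in OC (lowest, median and highest) and at 2.42, 0.19, 0.32 and 1.61 in Cumulus. The groups were 4.98 apart at their closest, the difference was 6.97 ± 0.38 (limma, adjusted p = 7.88e-17) and it was 5.09 after quantile normalization and 6.72 with the scanner as a term. Its second probe differed by 4.68 and was well above background on 7 OC and 2 Cumulus arrays. *Esr1*, *Stard4* and *Por*, which encode an oestrogen receptor, a sterol carrier and the electron donor of such enzymes, were also higher in OC, by 5.75 ± 0.45, 4.09 ± 0.54 and 2.10 ± 0.27. For *Stard4* this held for 1 of 3 probes, and the others, well above background on all 11 arrays, differed by -0.56 and 0.06 and were not called. *Amh*, the anti-Müllerian hormone of growing follicles, was well above background on all 7 OC and no Cumulus array and at least 5.98-fold higher in OC, while its receptor *Amhr2* was at least 175-fold higher in Cumulus.

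**Figure D4:**
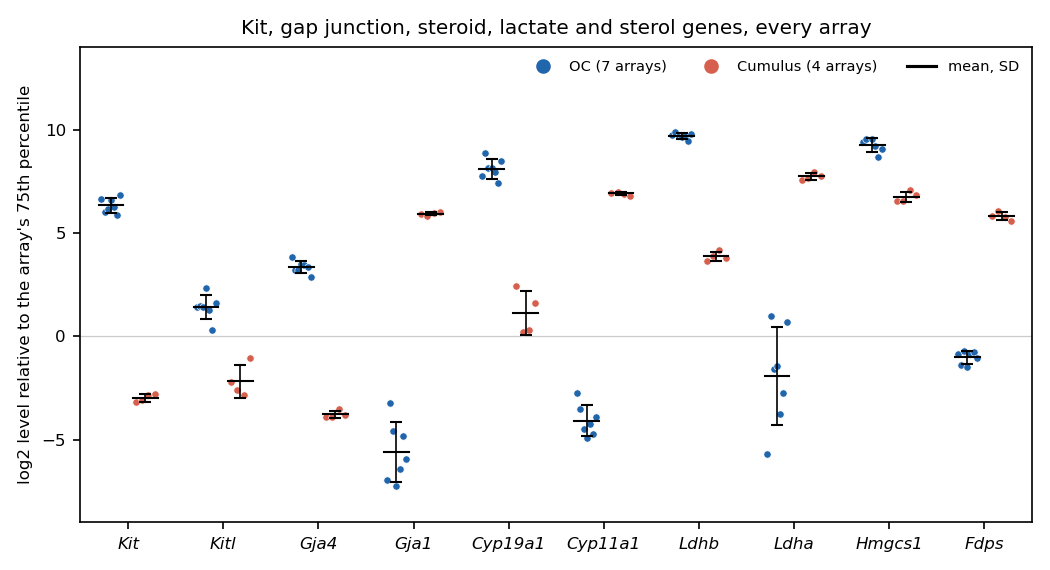
Levels on every array of *Kit* and its ligand *Kitl*, of the connexin genes *Gja4* and *Gja1*, of *Cyp19a1* and *Cyp11a1*, of the lactate dehydrogenase genes *Ldhb* and *Ldha* and of the sterol genes *Hmgcs1* and *Fdps*, as log2 intensity relative to the array's 75th percentile with mean and SD (7 OC and 4 Cumulus arrays). The receptor and its ligand were both higher in OC, and each of the other pairs held 1 gene higher in each cell type.

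Cholesterol synthesis, for which oocytes are known to lean on their cumulus cells, was split step by step. Of 25 genes of the pathway and its control, 15 were higher in Cumulus and 8 in OC (median -1.71). *Fdps*, farnesyl diphosphate synthase, was at 5.84, 6.05, 5.79 and 5.56 in Cumulus and between -1.48 and -0.70 in OC (median -0.86), a 113-fold difference. *Tm7sf2*, *Ggps1*, *Ebp*, *Cyp51*, *Lss*, *Pmvk* and *Mvd* were also higher in Cumulus, by -7.12 ± 0.56, -6.79 ± 0.60, -5.02 ± 0.35, -4.52 ± 0.66, -4.46 ± 0.49, -4.30 ± 0.28 and -4.20 ± 0.22, and *Mvk* was at least 12.0-fold higher there. Of these, *Tm7sf2*, *Ggps1* and *Lss* were well above background on 5, 3 and 3 OC arrays and the rest but *Mvk* on all. The second probe of *Ggps1*, well above background on all 11 arrays, did not pass the test (-0.26, limma, adjusted p = 0.424), and that of *Lss* differed by -1.47. *Hmgcs1* and *Idi1*, which make HMG-CoA and isomerize isopentenyl diphosphate, were higher in OC, by 2.51 ± 0.17 (1 spot marked as an outlier was left out) and 3.23 ± 0.23. So were *Insig1*, the sterol sensor of the endoplasmic reticulum, *Lbr*, the sterol reductase of the nuclear envelope, and *Sc5d*, by 4.95 ± 0.26, 4.47 ± 0.26 and 3.65 ± 0.20. *Msmo1* and *Hsd17b7*, 0.58 ± 0.20 and 1.14 ± 0.22 higher in OC, turned under quantile normalization (-1.42 and -0.75). *Msmo1* also missed the threshold without OC replicates 1, 3, 4 or 5 or Cumulus replicates 1, 2 or 4, each left out alone (0.49 to 0.58).

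In glycolysis and lactate handling, 22 of 34 genes were higher in Cumulus and 5 in OC (median -2.37). By their brightest probes, genes of several steps were higher in Cumulus. *Gpi1* was at 5.41, 5.96, 5.98 and 5.16 in Cumulus and between -1.04 and -0.16 in OC (median -0.73), and *Hk1*, *Aldoa*, *Tpi1*, *Pfkp*, *Pkm* and *Gapdh* differed by -8.81 ± 0.50, -6.75 ± 0.18, -7.41 ± 0.31, -4.20 ± 0.19, -4.10 ± 0.22 and -2.84 ± 0.14, with *Hk1* well above background on 5 OC arrays. The value of *Hk1* rested on 1 of 6 probes. Another, well above background on 6 OC and all Cumulus arrays, differed by -0.43 and was not called, and the 4 dimmer ones differed by -0.59 to 1.54. *Hk2* did not pass the test, at 5.45 ± 0.54 in OC and 6.03 ± 0.41 in Cumulus (adjusted p = 0.0815). The lactate dehydrogenase subunits were on opposite sides. *Ldha*, the muscle subunit, was at 7.55, 7.65, 7.97 and 7.77 in Cumulus and between -5.69 and 1.01 in OC (median -1.56; 6 OC arrays well above background), whereas *Ldhb*, the heart subunit, was at 9.46, 9.70 and 9.87 in OC (lowest, median and highest) and at 3.63, 3.90, 4.17 and 3.78 in Cumulus. *Ldhc*, the germ-cell subunit, was at least 51.5-fold higher in OC. *Slc16a3*, which exports lactate, differed by -8.15 ± 0.28 (6 OC arrays well above background), while *Slc16a7*, a pyruvate importer, differed by 3.46 ± 0.40 and the 3 probes of *Slc16a1* ranged from -3.30 to 6.68. *Pdha1* and *Pdk1*, of pyruvate entry into mitochondria, had 2 probes each that went opposite ways (2.17 and -0.95, 1.58 and -1.86).

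**Figure D5:**
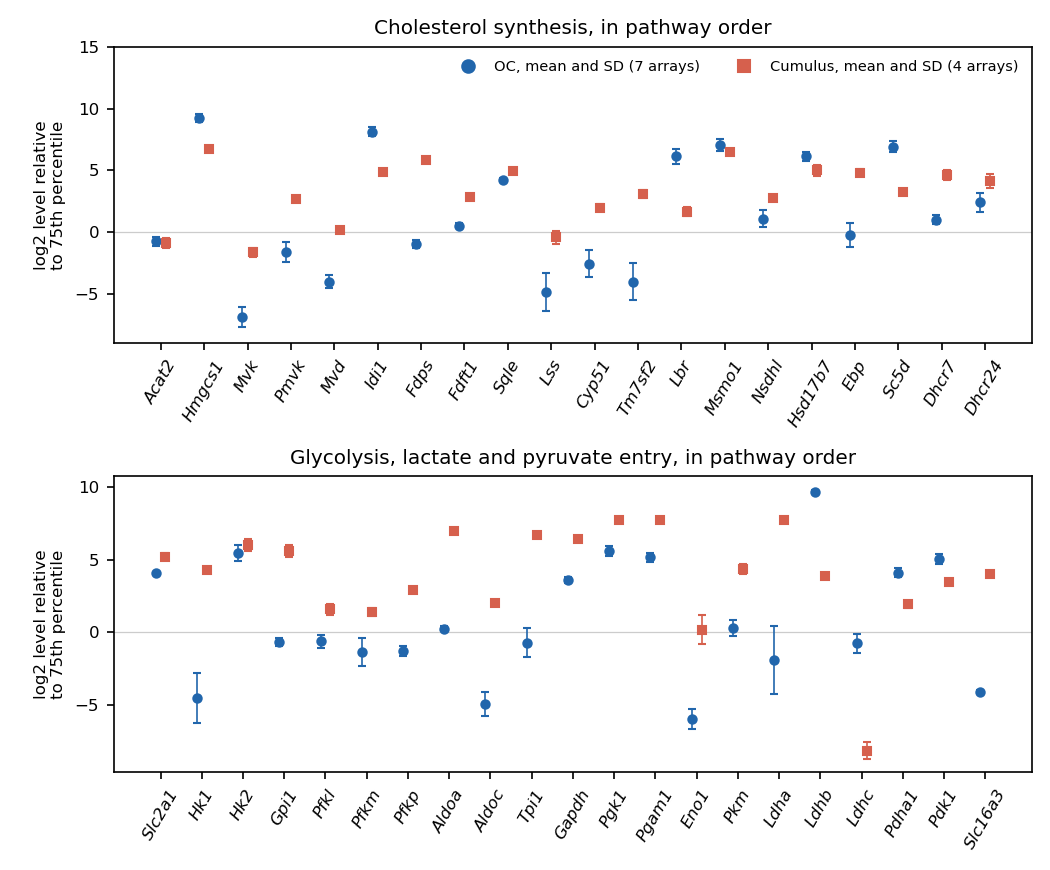
Mean log2 level relative to the array's 75th percentile with SD in OC (7 arrays) and Cumulus (4 arrays) for 20 sterol genes and 21 glycolytic genes in the order of their pathways, each by its brightest probe. OC lies clearly above Cumulus at *Hmgcs1*, *Idi1*, *Lbr*, *Sc5d*, *Ldhb* and *Ldhc*, above it also at *Pdha1* and *Pdk1*, whose other probes disagree, and below it at most other steps.

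Amino acid transporters, through which cumulus cells feed the oocyte, included 13 of 27 higher in Cumulus and 10 in OC (median -0.89). Over all genes the shares were 28.5% and 34.4%. *Slc38a2*, a sodium-coupled transporter of small neutral amino acids, was at 4.11, 4.14, 4.28 and 4.17 in Cumulus and between -7.15 and -3.60 in OC (median -6.43; 2 OC arrays well above background). *Slc38a5* was at least 167-fold higher in Cumulus, and *Slc1a4* and *Slc38a1* differed by -8.58 ± 0.52 and -7.79 ± 0.43, with 2 and 3 OC arrays well above background. *Slc7a2*, a carrier of cationic amino acids, and *Slc7a11*, the cystine carrier that feeds glutathione synthesis, were higher in OC, by 8.69 ± 0.25 and 7.39 ± 0.22. The other probes of *Slc7a11* differed by 2.55 and 8.46. *Slc6a9*, the glycine transporter with which eggs control their volume, was 3.36 ± 0.15 higher in OC.

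Extracellular matrix and adhesion genes were higher in Cumulus in 18 of 34 cases and in OC in 6 (median -1.59). *Sparc*, a matrix glycoprotein, was at 6.25, 6.52, 6.94 and 6.46 in Cumulus and between -7.29 and -3.76 in OC (median -5.87; 2 OC arrays well above background). *Vim*, the intermediate filament of mesenchymal and granulosa cells, and *Nid1*, a basement membrane link protein, differed by -11.23 ± 0.67 and -9.02 ± 0.34 and were well above background on 4 and 1 OC arrays. *Col4a2* and *Col18a1*, basement membrane collagens, differed by -7.69 ± 0.29 and -7.38 ± 0.31. *Cdh1*, E-cadherin, was at 7.29, 7.54 and 7.77 in OC (lowest, median and highest) and at -3.67, -4.01, -3.65 and -3.10 in Cumulus, and *Itga6*, *Lamb1*, *Lama5* and *Cdh2* were higher in OC by 5.71 ± 0.28, 4.68 ± 0.22, 3.12 ± 0.28 and 2.89 ± 0.39. *Lamc1* was 1.98 ± 0.20 higher in OC on this scale and turned under quantile normalization (-0.20).

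Genes of the X chromosome were read against the autosomes, since a growing oocyte keeps both X chromosomes active and cumulus cells silence one. Among genes well above background on all 11 arrays, the median difference was 1.05 for 298 X-linked and 1.11 for 9300 autosomal genes. Of the X-linked genes 51.7% were higher in OC and 31.9% in Cumulus, beside 54.7% and 28.7% of the autosomal ones. *Xist*, the RNA that coats the inactive X, was by its brightest probe at 0.26, -1.81, -1.35 and 0.75 in Cumulus and between -4.79 and -0.49 in OC (median -3.95). By this probe the groups overlapped (difference -3.00 ± 0.57; 6 OC arrays well above background). Other probes of *Xist*, well above background on all 4 Cumulus arrays and no OC array, were called higher in Cumulus (-3.77 and -3.49). A last probe, well above background on 3 Cumulus arrays and no OC array, differed by -1.71 and was not called. *Kdm6a*, which escapes inactivation, was 5.32 ± 0.25 higher in OC, while *Kdm5c* did not pass the test by its brightest probe (2.71 ± 0.28 in OC, 2.49 ± 0.14 in Cumulus) and was 2.68 higher in OC by its second (adjusted p = 8.64e-14). Of the 6 Y-linked genes measured, none was well above background on an OC array, and 1 of them was so on 1 Cumulus array.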

How the data were processed

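Gene expression was measured on 39 one-colour arrays, of which the 7 OC and 4 Cumulus arrays are reported. The deposited scanner files hold processed intensities, from which the software of the authors' scanner had subtracted background and trend, and the labels name Agilent Feature Extraction 9.5.3.1 for all samples. The log2 values of the authors' processed table were the same intensities relative to the 75th percentile and to each probe's median (98.2% within 0.05, column medians -0.297 to 1.08), and they served as an alternative.

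Control spots and 1820 outlier values (707 on the OC and Cumulus arrays) were left out, spots of a probe were averaged, and log2 intensity minus the 75th percentile of the array was tested with limma 3.58.1 (R 4.3.3, statmod 1.5.0) over OC, IVF, TSA(-), TSA(+) and Cumulus arrays, contrast OC minus Cumulus, Benjamini-Hochberg adjusted p under 0.01. TSA(-) and TSA(+) are SCNT embryos without and with trichostatin A. The design text calls the samples biological replicates. The number of arrays limits the precision, and the fit was tested on simulated data. A bound ("at least") sets the mean of the brighter group against the dimmest signal well above background. It holds on the main scale and background subtraction, and other settings can give less. With normexp the difference of *Klf6* was -9.24, smaller in size than its bound in log2 units. Tables were handled with pandas 2.3.3 (Python 3.11.15) and figures with matplotlib 3.10.9.

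Probes were named through transcript accessions in RefSeq (27829 with 1 gene, 32 with several, 13313 with none). Named genes were the 6 markers, list members with the largest differences, those against the majority of their list or those it is known for, and 10 genes per direction by difference or by level. The members and lists were chosen with earlier results of these data known. Alternatives changed scaling, background correction, dim-probe filter, outlier spots, samples, test, threshold, slide, scanner, replicate block, single arrays and probes per gene. Some list members are counted in their lists but not reported here singly.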

Additional observations from a re-analysis of the deposited data

Results flagged for a closer look

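Among 376 sets of values (184 in OC, 192 in Cumulus) of named genes well above background on every array of a group, 27 (7.18%) held 1 sample farther from the others than Dixon's test allows, and chance gives about 1 in 20. Of the 27, 13 belonged to OC replicate 6, 5 to OC replicate 2, 3 each to OC replicate 1 and Cumulus replicate 3, 2 to Cumulus replicate 4 and 1 to OC replicate 3. No call of a named gene was lost without OC replicate 6.

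OC replicate 6 was below the other OC samples for *Bmp15* (8.83, the others 9.33 to 9.53), *Dazl* (6.87, 7.70 to 8.08), *Oas1e* (9.06, 9.39 to 9.62), *E330021D16Rik* (9.34, 9.82 to 10.14), *Sox2* (0.37, 1.74 to 2.76) and *Ccnb1* (8.85, 9.42 to 9.75). It was also below them for the receptor genes *Bmpr1a* (0.32, 1.69 to 1.95), *Bmpr1b* (6.51, 7.30 to 7.90) and *Tgfbr1* (3.68, 4.66 to 5.16), for *Cd81* (3.1, 3.65 to 4.05) for *Epb42* (0.21, 0.77 to 1.12) and for *Slc16a1* (-3.19, -1.31 to 0.11), and above them for *Tpi1* (1.25, -1.71 to -0.52).

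OC replicate 2 was higher for *Cd9* (5.19, the others 3.27 to 3.84) and *Aldoa* (0.67, 0.07 to 0.30) and lower for *Mos* (4.79, 5.56 to 5.79), *Astl* (0.19, 1.94 to 2.57) and *Pecam1* (-1.09, 0.04 to 0.89). OC replicate 1 was higher for *Ovgp1* (-1.32, -4.52 to -3.61) and lower for *Tdrd7* (-2.10, 0.76 to 1.69) and *Pdha1* (3.42, 4.09 to 4.37), and OC replicate 3 was lower for *Dnmt1* (3.99, 4.46 to 4.78). In Cumulus, replicate 3 was higher for *Nr4a1* (7.25, 6.83 to 6.89), *Sc5d* (3.49, 3.18 to 3.21) and *Slc38a5* (2.62, 1.91 to 2.02), and replicate 4 for *Ccnb1* (4.31, 3.27 to 3.42) and *Tcl1* (-3.76, -4.60 to -4.46).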

How the results depend on the processing

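The number of probes called was 27969, and it came to 23941 after quantile normalization, 36121 with normexp, 27377 with the scanner as a term and 26110 to 28088 with single arrays left out. The probes shared between settings were not counted. Probes higher in OC numbered 18675, but 28745 with normexp and 11481 when only probes well above background in a group were tested, which leaves fewer probes, and 17137 to 18881 with single arrays left out. With calls kept only where the higher group was above background, single arrays left out gave 10811 to 11121 in OC and 8770 to 9076 in Cumulus. Same-numbered OC and Cumulus samples showed no shared deviation (r = -0.113, -0.158, -0.046 and 0.0225). Differently numbered ones ranged from -0.215 to 0.17. With 4 arrays per group on different slides and scanners, this check cannot exclude that the numbers pair the samples. With the replicate number as a block over replicates 1 to 4, 24658 probes were called, and 27180 without the block. After quantile normalization *Hsd17b7* (-0.75), *Lamc1* (-0.20), *Msmo1* (-1.42) and *Pparg* (-0.30) turned, and 5 of 248 named genes missed the threshold, among them *Pdk1* (0.08) and *Hprt* (0.02). With the mean over probes, *Egfr* (-2.36), *Pdk1* (-0.14), *Slc16a1* (0.14) and *Tut7* (0.07) turned, and 52 of 92 genes moved by more than 1 SD. Single arrays left out turned no named gene but ended the calls of 3 (*Hba-a1*, *Msmo1* and *Nanog*). Without Cumulus replicate 2 or 3, *Hba-a1* came to -1.64 and -1.68. The median of the ligands and receptors (0.11) fell below 0 with median centring (-0.10) and with the scanner as a term (-0.18), that of the oviduct markers (-0.45) rose above 0 with normexp (0.63) and with the scanner as a term (0.08), and that of the erythroid markers (-2.42) with normexp (0.04). The cause of these shifts was not tested. Signals below background and the higher floor of the OC arrays limit what can be said of dim genes.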

Other observations

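Markers of theca and stroma, endothelium and red cells did not lie on one side. Of 11 theca and stroma markers, 2 were higher in OC and 2 in Cumulus (median difference 0.76), and their summed level was between 0.84 and 1.89 in OC and between 0.81 and 3.18 in Cumulus. *Col3a1*, a fibrillar collagen, was at 1.96, -1.04, -0.29 and 0.07 in Cumulus and between -7.19 and -3.15 in OC, while *Myh11*, the smooth muscle myosin, was 7.10 ± 0.26 higher in OC. Of 9 endothelium markers, 4 were higher in OC and 2 in Cumulus (median 2.50), with a summed level of 2.47 to 3.57 in OC and 1.38 to 2.01 in Cumulus. *Esam*, an endothelial adhesion molecule, was at -3.91, 1.8 and 1.86 in OC (lowest, median and highest) and between -5.57 and -4.23 in Cumulus. Of 5 erythroid markers, 3 were higher in Cumulus and 1 in OC (median -2.42). None of the 3 kept its call under all 4 of quantile normalization, median centring, normexp and the scanner as a term, and the median came to 0.04 with normexp. The last was *Epb42*, a membrane skeleton gene, at 0.21, 0.95 and 1.12 in OC (lowest, median and highest) and at least 159-fold lower in Cumulus.

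Single X-linked genes lay on both sides. *Pgk1*, the glycolytic phosphoglycerate kinase, was at 7.76, 7.51, 7.72 and 8.00 in Cumulus and between 5.24 and 6.12 in OC. *Hprt*, of purine salvage, was at 7.52, 8.28 and 8.80 in OC (lowest, median and highest) and at 5.97, 5.92, 6.12 and 6.4 in Cumulus, a difference of 2.19 ± 0.17 that came to 0.02 after quantile normalization.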
